A study of Rattus norvegicus with 1 sample.

Results

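Chromosome 10 of the rat genome (build rn4) was examined in the control DNA of a ChIP-Seq experiment on PCCl3 cells, in non-overlapping 100 kb bins from the first position to the last tag. The chromosome gave 1108 bins of the 25590 on the 20 autosomes, and of 27197 when chromosome X was added. PCCl3 is a continuous line of differentiated rat thyroid follicular cells, grown here with thyrotropin and the other hormones of its usual medium. The cells had been fixed with formaldehyde and sonicated, and the DNA was sequenced with no antibody selection after size selection near 200 bp and 18 cycles of PCR. The label calls the sample input DNA, whereas the series text, the library protocol and the study's methods together point to the non-IP DNA, set aside right before the Pax8 pull-down and used as control in peak calling. The methods name IP and non-IP DNA as those prepared for sequencing. They also describe a separate input, taken before sonication and used for normalization, which the wording of the label would fit. It is 1 library from 1 line, so no difference below has a replicate check and no test could be made.

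In ChIP-Seq the unselected DNA serves as the background against which peaks of the immunoprecipitated DNA are called. A level background would follow the amount of each region in the cells and the share of it to which short reads can be assigned. Fragmentation of chromatin, base composition in PCR and the number of copies of a region in a cultured line are all known to shape such a background, and none of them was measured here.

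A tag is an aligned read of 50 bp, and a distinct tag is the single copy kept at each 5′ end and strand. Chromosome 10 held 486963 tags, of which 424314 were distinct (exact Poisson 95% interval 423038 to 425593). These were 7.35% of the distinct tags of all autosomes in 4.33% of their bins. The PCR products carried no molecular identifiers, so every interval given here covers counting error only. Bins with fewer than 43 distinct tags, which is 25% of the genome-wide median of 171, were left out of the density values. On chromosome 10 this kept 1086 bins and left out 22, which lay in 15 stretches of at most 3 bins. Among the 22 were 13 with no tag, where a count of 0 allows up to 3 tags, and the fullest of the others held 42. The last bin was partial and covered 18.77 kb with 123 distinct tags.

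The chromosome was selected on its tag density in this library, the highest of the autosomes, and the division at 62 Mb was set on the same density, so the density values on this chromosome and on either side of the division are descriptions. The median retained bin held 349.5 distinct tags (quartiles 202 and 513), or 1.86 times the autosomal median of 188. Chromosome 12 followed at 1.71 times and chromosome 19 at 1.39 times, and the lowest autosome, chromosome 15, lay at 0.691 times. Below 62 Mb the median was 249 tags per bin (quartiles 159 and 375; 607 bins), or 1.32 times the autosomal median. From 62 Mb to the end it was 485 (quartiles 352 and 676.5; 479 bins), or 2.58 times. The distal part thus held 1.95 times the tags per bin of the proximal part and 59.3% of the distinct tags of the chromosome in 44.0% of its bins. The ranges overlapped, since 53 distal bins (11.1%) fell below the proximal median and 73 proximal bins (12.03%) lay above the distal median.

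**Figure D1:**
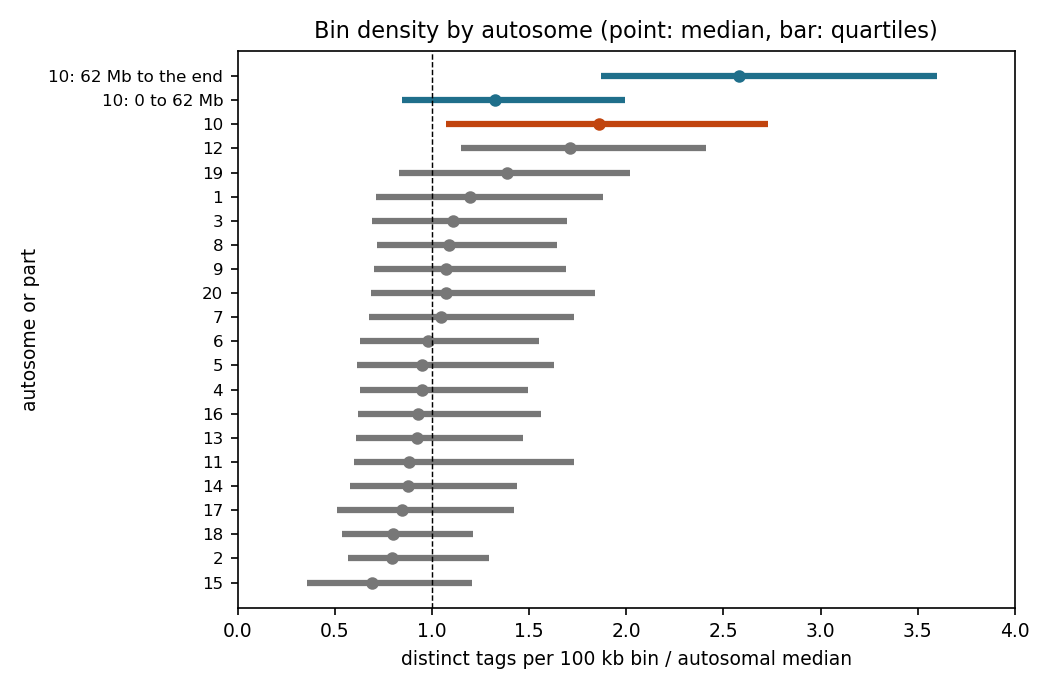
Distinct tags per 100 kb bin divided by the autosomal median (horizontal axis, no unit) for each autosome and for both parts of chromosome 10 (vertical axis), with points at medians and bars from the lower to the upper quartile of retained bins. The proximal part of chromosome 10, at 1.32, lies between chromosomes 19 and 1, whereas the distal part, at 2.58, lies above every whole autosome.

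The proximal part alone would therefore sit among the denser autosomes rather than at their head. Chromosome 12 had the higher lower quartile, at 216 tags against 202 on chromosome 10. Chromosome 10 led in the upper quartile, with 513 against 453 on chromosome 12, and in its densest bin, with 1497 tags against 1379 on chromosome 19. Its bins were no more uneven than those of other autosomes relative to their mean: the coefficient of variation was 60.3%, rank 13 of 20.

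Counted against fixed limits, 489 bins of chromosome 10 (45.0%) reached 2 times the autosomal median, where 15.3% of all retained autosomal bins did. Of these, 150 lay below 62 Mb (24.7% of the proximal bins) and 339 beyond it (70.8% of the distal bins). At 3 times the median the count was 222 bins (20.4%) against 4.15% over all autosomes, with 38 proximal and 184 distal. Bins at 0.5 times the median or less were few, with 34 (3.13%) against 12% over all autosomes, and 33 of the 34 were proximal. Chromosome 10 had the smallest share of such sparse bins of the 20 autosomes, with chromosome 12 next at 3.83%. All of these counts follow from the density that chose the chromosome.

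Along the chromosome the density did not hold a single level on either side of the division. Taken in blocks of 5 Mb, the proximal part began at 1.18 times the autosomal median, rose to 2.47 times from 10 to 15 Mb and fell to 0.793, 0.734 and 0.867 times in the blocks from 20 to 35 Mb. It came back to 1.92 times from 45 to 50 Mb and to 1.94 times from 55 to 60 Mb, levels that the distal part also held in places. The distal part ran at 2.51, 2.37 and 2.33 times from 65 to 80 Mb, dipped to 1.83 times from 80 to 85 Mb, rose to 3.26 times from 85 to 90 Mb and fell again to 2.17 times from 100 to 105 Mb. Its highest block, from 105 to 110 Mb, held a median of 845 tags per bin, 4.49 times the autosomal median, and 98% of the bins in it reached 2 times. The ends of the chromosome differed, since the first 2 Mb had a median of 1.10 times and no tag-rich window, whereas the last 2 Mb had 3.60 times and 39 such windows.

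**Figure D2:**
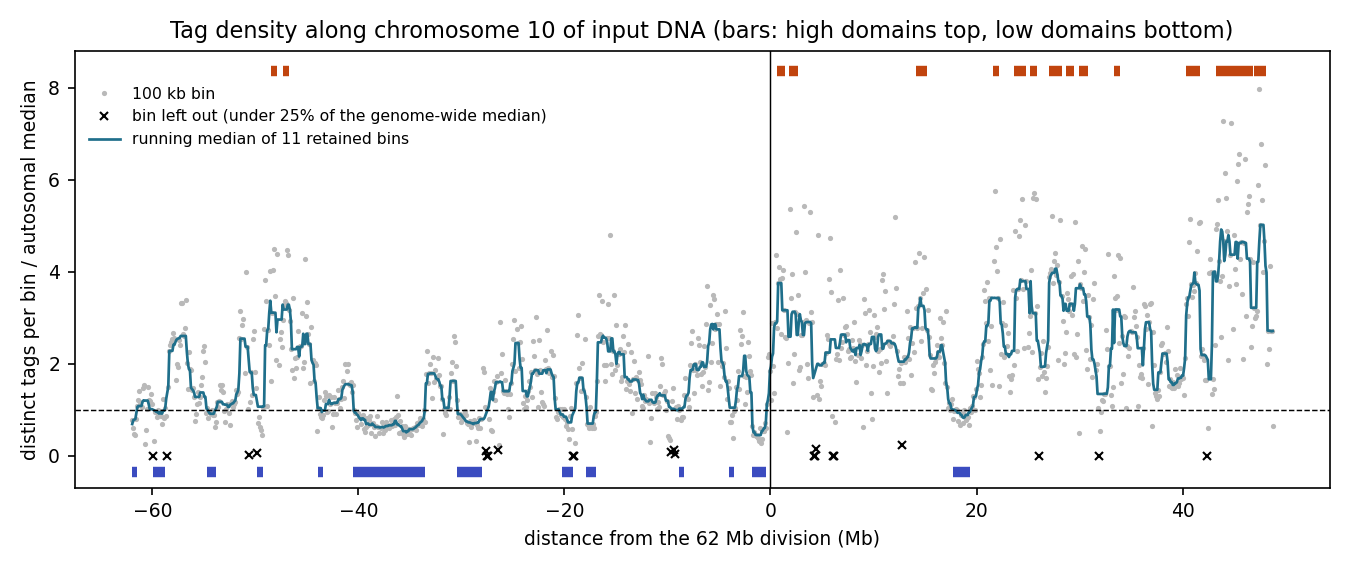
Distinct tags per 100 kb bin divided by the autosomal median (vertical axis, no unit) against distance from the 62 Mb division (horizontal axis, Mb), with retained bins as grey points, bins left out as crosses and the running median of 11 retained bins as a line. The bars at the top mark 15 domains of high density, 13 of them to the right of the division, and those at the bottom 13 domains of low density, 12 of them to its left.

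At the division itself no edge was seen between neighbouring bins. The 5 bins just below 62 Mb held 111, 209, 404, 417 and 347 distinct tags in order of position, and the 5 just above held 227, 541, 365, 255 and 548. The bin from 62000001 to 62100000 was thus sparser than the 3 bins before it. The last sparse stretch before the rise was a domain from 60200001 to 61600000 with a median of 90.5 tags per bin, or 0.481 times the autosomal median, the lowest of any low-density domain on the chromosome.

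A high-density domain was defined as a run of at least 5 retained bins whose running median over 5 bins was at least 3 times the autosomal median, and a low-density domain as such a run under 1 time the median. Chromosome 10 held 15 high-density domains with 163 bins, or 15.0% of its retained bins against 2.13% over all autosomes. Chromosome 1, with 9 domains, had the next largest number, and 8 autosomes had 0. Together the 15 covered 16.3 Mb, with lengths from 0.6 to 3.6 Mb. Only 2 of them, of 0.6 Mb each, were proximal, from 13500001 to 14100000 and from 14700001 to 15300000.

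The longest high-density domain ran from 105200001 to 108800000. It held 30957 distinct tags with a median of 871 per bin, 4.63 times the autosomal median, and its 36 bins ranged from 390 to 1369 tags. The next, from 108900001 to 110100000, was denser still at 909 tags per bin, or 4.84 times. The other 4 of at least 1 Mb lay at 76100001 to 77200000 (3.26 times), 85600001 to 86800000 (3.72 times), 89000001 to 90300000 (3.97 times) and 102300001 to 103700000 (3.74 times). The spread within a domain differed among the 15, from bins of 597 to 839 tags in the domain at 14700001 to 15300000 to bins of 92 to 857 tags in the domain at 91900001 to 92800000.

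Low-density domains numbered 13, with 190 bins or 17.5% of the retained bins against 46.9% over all autosomes. They covered 19 Mb at 0.723 times the autosomal median. The longest, from 21500001 to 28500000, spanned 7.0 Mb in 70 bins of 78 to 243 tags, with a median of 124 or 0.660 times. Beside that from 60200001 to 61600000 given above, other proximal ones of at least 1 Mb lay at 2100001 to 3200000 (0.915 times), 31600001 to 34000000 (0.734 times), 41800001 to 42800000 (0.758 times) and 44100001 to 45100000 (0.684 times). The single distal one, from 79700001 to 81400000, had 17 bins of 126 to 196 tags with a median of 166, or 0.883 times, which was above all but 3 of the 12 proximal ones.

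Among single bins the densest lay inside these domains. The 5 densest retained bins, taken at least 1 Mb apart, were all distal: 1497 distinct tags (Poisson 95% interval 1422 to 1575) from 109400001 to 109500000, 1369 from 105900001 to 106000000, 1233 from 107400001 to 107500000, 1083 from 83700001 to 83800000 and 1075 from 87500001 to 87600000. The densest was 7.96 times the autosomal median. The 5 sparsest retained bins were all proximal, with 45, 47, 51, 51 and 54 tags, which is 0.239 to 0.287 times the median. They lay just above the limit of 43 tags. Sparser bins had been left out, among them distal ones with 26 and 42 tags.

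Neighbouring bins were alike over distances up to the megabase scale. The correlation of log2 density between bins of chromosome 10 was 0.780 at 0.1 Mb (1070 pairs of bins), 0.455 at 1 Mb and 0.156 at 5 Mb. With each part centred on its own mean it was 0.699, 0.290 and -0.07 at the same distances, so it was lower at each distance once the difference between both parts was removed. The other autosomes had values from 0.675 to 0.862 at 0.1 Mb and from 0.188 to 0.630 at 1 Mb. These bins share 1 library, and the correlations are descriptions. On a finer scale, the variance of tags over occupied 10 kb bins was 21.3 times the mean on chromosome 10, above the 19.4 of chromosome 19, where independent tags at an even rate would give 1. This measure grows with the mean, which was highest on chromosome 10. The coefficient of variation left after counting variance is removed was 0.707, rank 14 of the 20 autosomes. The variance was 17.2 times the mean within the high-density domains and 2.97 times within the low-density ones, where the remaining coefficient of variation was 0.459 and 0.373.

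The repeated share and the opposite-strand pairs were not used to choose the chromosome, although they come from the same library and move with density. The repeated share is the percentage of tags beyond the first at the same 5′ end and strand. On chromosome 10 it was 12.9% (62649 of 486963 tags, Clopper-Pearson 95% interval 12.77 to 12.96%) against 10.6% over the other autosomes, and only chromosomes 12 (14.5%) and 20 (13.04%) were higher. It was 11.9% (11.74 to 12.02%) below 62 Mb and 13.5% (13.4 to 13.7%) beyond it, a difference of 1.65 percentage points. Across the 1086 bins the share ranged from 0.699 to 25.3%, and its Spearman correlation with density was 0.751, against 0.477 to 0.779 on the other autosomes. It was 16.04% in the high-density domains and 6.34% in the low-density ones.

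Most positions with repeats held only a few tags. Of the 424314 positions, 87.5% held 1 tag, 10.6% held 2 and 1.57% held 3, against 89.8%, 8.75% and 1.18% on the other autosomes. A total of 197 positions held 5 or more, and only 2 held 10 or more. Those were neighbours on the plus strand at 12466219, with 16 tags, and 12466218, with 10 tags, inside the low-density domain from 12200001 to 12700000. That domain had a repeated share of 11.1%, the highest of the 13, and of 7.38% (5.47 to 9.69%) without the 1 kb window that holds both positions. No distal position held more than 7 tags.

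In order to compare the repeated share at like density, bins were sorted into classes of their ratio to the autosomal median. The class of 4 times or more has no upper limit, so density was not matched within it. The proximal part lay close to the other autosomes in each class, with 13.995% (13.7 to 14.3%) against 13.6% in bins of 2 to 3 times the median. The distal part lay lower, at 11.2% (11.001 to 11.439%) over 155 bins in the same class. It was also lower from 3 to 4 times, at 14.5% (14.2 to 14.7%) against 16.1% in the proximal part and 16.2% elsewhere, and at 4 times or more, at 16.8% (16.54 to 17.03%) against 17.9% in both. From 0.5 to 1 times the distal share was the higher, at 7.39% (6.62 to 8.23%, 26 bins) against 6.75% in the proximal part and 6.62% elsewhere. In those 26 bins 43.9% of the 1 kb windows were empty, against 33.9% and 36.6%. The bins of this class were thus not alike in how much of each held tags. Single autosomes also varied: chromosome 10 as a whole had 12.4% from 2 to 3 times, where 17 of 19 other autosomes were higher and the lowest had 12.2%, and 14.8% from 3 to 4 times, where 11 of 13 were higher and the lowest had 14.2%. At 4 times or more it had 16.9%, and 2 of 3 others were higher. The distal share in the class of 2 to 3 times was near the 10.96% that other autosomes had in the class of 1.5 to 2 times. In the other classes from 1 time upward it lay above the next lower class elsewhere. The values were 8.14 against 6.62%, 9.58 against 8.94%, 14.5 against 13.6% and 16.8 against 16.2%.

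**Figure D3:**
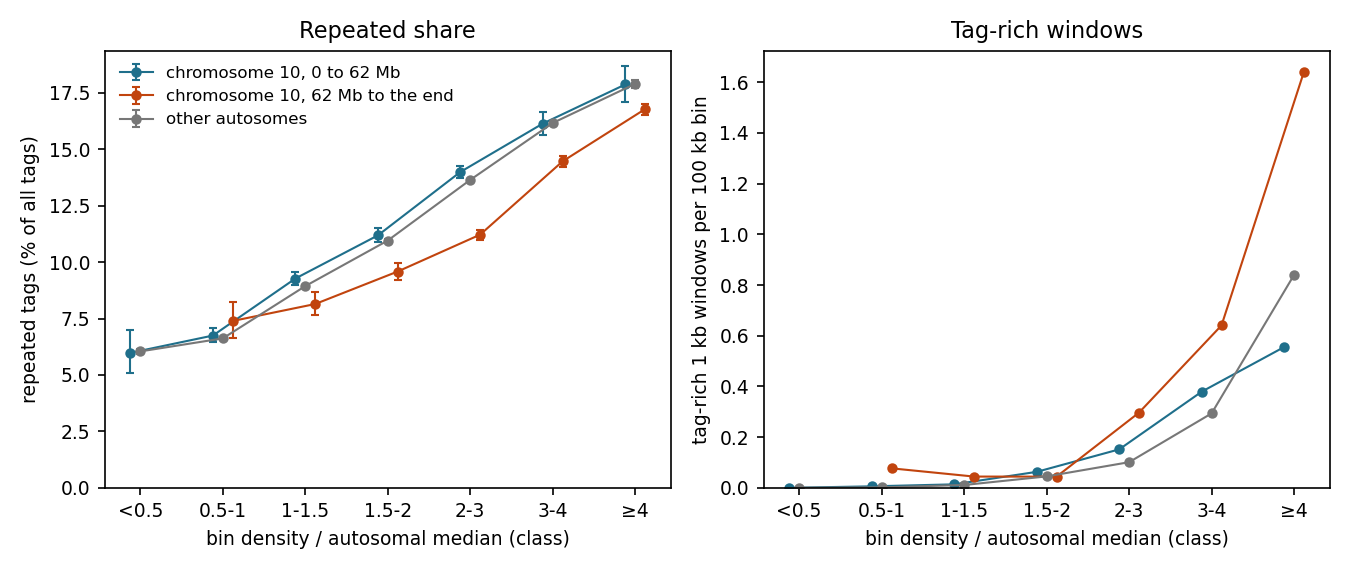
Repeated share (left, percent of all tags, bars are Clopper-Pearson 95% intervals) and tag-rich 1 kb windows per 100 kb bin (right) by class of bin density relative to the autosomal median (horizontal axes), for classes of at least 5 bins. From 1 time the median upward the distal part of chromosome 10 lies below the other autosomes in repeated share, and from 2 times upward it lies above them in tag-rich windows.

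The same comparison was made the other way round, by the density of 1 Mb blocks at like repeated share, and it was chosen after the values above had been seen. Blocks with at least 5 retained bins were placed in classes of repeated share (under 6%, then steps of 2 percentage points to 18%), and the mean density of each was divided by the median over the blocks of the other autosomes in its class. All 49 distal blocks lay above that median, and their density was 1.55 times it at the median block. Of the 62 proximal blocks 36 lay above it (58.1%), with a median of 1.04 times. In the class from 10 to 12% the blocks had 2.36 times the autosomal density in the distal part (10 blocks), 1.18 times in the proximal part (9 blocks) and 1.51 times on the other autosomes (339 blocks).

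Because the ratio contains the density on which the chromosome and the division were chosen, these counts and the values along the chromosome are descriptions too. The last 2 blocks before it, from 60 to 62 Mb, had 0.607 and 0.685 times the density of their class, and the first 3 after it, from 62 to 65 Mb, had 1.59, 1.35 and 1.57 times. In steps of 5 Mb the medians ran from 0.944 to 1.25 up to 60 Mb and from 1.39 to 1.74 beyond 65 Mb. The least and the most dense distal stretches of 5 Mb had 1.51 (80 to 85 Mb) and 1.64 (105 to 110 Mb) on this scale, and the lowest distal value, 1.39, was at 90 to 95 Mb. The sparse proximal stretches from 20 to 35 Mb had 1.04, 1.09 and 1.25. Whole autosomes other than 10 had median ratios from 0.668 on chromosome 15 to 1.11 on chromosome 11. A level like the distal one was not limited to chromosome 10, since the highest median over 49 consecutive blocks on other autosomes was 1.61, on chromosome 1, followed by 1.27 on chromosome 11. Base composition, copy number and the share of each bin open to unique alignment were not analysed here, and their part in the difference was not tested.

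**Figure D4:**
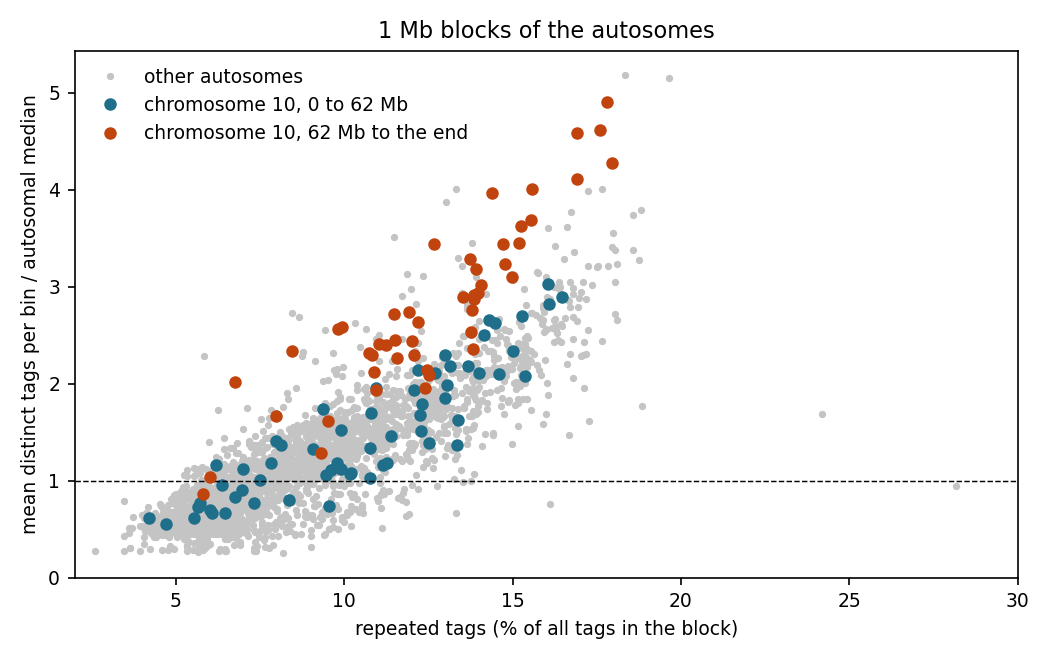
Mean distinct tags per bin divided by the autosomal median (vertical axis, no unit) against repeated tags as a percentage of all tags (horizontal axis) for 1 Mb blocks of the autosomes. All 49 distal blocks of chromosome 10 lie above the median of the other autosomes in their class of repeated share. Some do so only slightly, with 1.07 times at 79 to 80 Mb and at 88 to 89 Mb. The 62 proximal blocks lie on both sides of that median.

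Opposite-strand pairs were counted as follows: a plus-strand 5′ end followed by a minus-strand 5′ end 100 to 250 bp downstream, less the level at 400 to 600 bp. The pairs were most frequent at a distance of 163 bp on chromosome 10, at 163 bp below 62 Mb and 166 bp beyond it, within the range of 161 to 179 bp of the other autosomes. At that distance there were 11.1 pairs per 1000 plus-strand tags and bp in the distal part, 6.83 in the proximal part and 5.44 on the other autosomes. The level at 400 to 600 bp rose alongside, with 4.48, 2.57 and 2.25, so that the height of the peak over that level was 2.48, 2.65 and 2.42 times. Relative to background the proximal part therefore had the taller peak, although the distal part had the larger number. At 50 bp the levels were 5.65, 3.53 and 3.20, each above that at 400 to 600 bp. An excess over that level thus need not come from the peak alone.

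**Figure D5:**
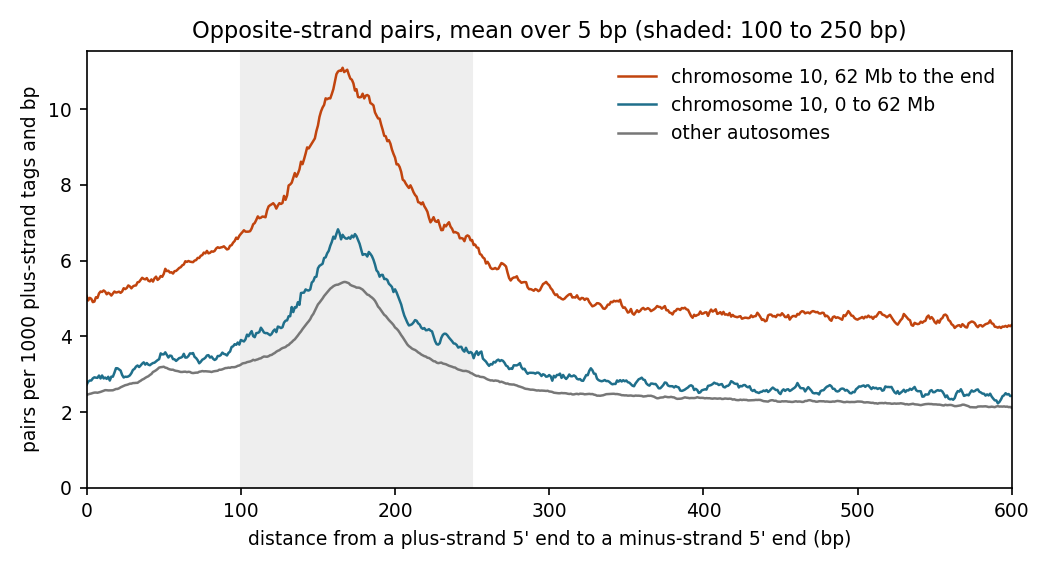
Number of opposite-strand pairs of 5′ ends per 1000 plus-strand tags and bp (vertical axis, mean over 5 bp) against the distance between them (horizontal axis, bp), for both parts of chromosome 10 and for the other autosomes. All curves peak between 163 and 167 bp, and the distal part lies highest at every distance, at 11.1 at its peak and 4.48 from 400 to 600 bp.

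The excess of pairs was 1.68 per repeated tag on chromosome 10, the highest of the autosomes, where chromosome 19 had 1.38 and chromosome 2 the lowest value of 0.905. It was 1.31 below 62 Mb and 1.89 beyond it. Per 1000 distinct tags the excess was 177 pairs in the proximal part and 296 in the distal part, and that of the whole chromosome, 248, was followed by 232 on chromosome 12. Within classes of density the distal part was highest in most, with 1.61 pairs per repeated tag in distal bins of 2 to 3 times the median, 1.45 in proximal ones and 1.45 on the other autosomes. At 4 times or more the values were 2.20, 1.74 (9 bins) and 1.80, and from 0.5 to 1 times they were 0.878 (26 bins), 0.286 and 0.431, whereas from 1.5 to 2 times the proximal part was highest, with 1.246, 1.299 and 1.178. Per 1000 distinct tags the distal part was instead the lowest from 2 to 3 times, with 204 pairs against 236 in the proximal part and 229 elsewhere, and from 1.5 to 2 times, with 132 against 164 and 145. From 3 to 4 times it had 328 against 340.5 and 327, and it was the highest at 4 times or more, with 445 against 378 and 393, and from 0.5 to 1 times, with 70.1 against 20.7 and 30.5. Bins from 0.5 to 1 times had the unlike shares of empty windows given above. In the low-density domains the excess was 0.210 per repeated tag, against 2.06 in the high-density ones, and in the distal low-density domain from 79700001 to 81400000 there was none above the level at 400 to 600 bp (-0.001 per repeated tag).

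A window of 1 kb was called tag-rich from 10 times the mean of occupied windows upward, which came to 32 distinct tags. Chromosome 10 held 295 of them, or 0.266% of its 110719 windows against 0.0434% over all autosomes, and 26.6% of all those on the autosomes. Just inside the limit 48 windows held 32 tags, and just outside it 43 held 31. The distal part had 252 (517 per 100 Mb) and the proximal part 43 (69.4 per 100 Mb), which put the rate 7.46 times higher beyond 62 Mb. The proximal rate was itself below the 92.9 per 100 Mb of chromosome 19, the next autosome. A fixed limit of 32 distinct tags counts the same tags that chose the chromosome and its division. These counts and rates are therefore descriptions of that density on a finer scale.

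Among bins of at least 2 times the autosomal median, tag-rich windows were more frequent in the distal part than in the proximal part and on the other autosomes, whereas from 1.5 to 2 times the distal part had the fewest, with 0.0441 per bin (3 windows) against 0.0631 and 0.0451. In sparser bins it was again the highest, with 0.0444 per bin against 0.0138 and 0.0112 from 1 to 1.5 times and 0.0769 against 0.00592 and 0.00184 from 0.5 to 1 times, but these rest on 2 distal windows in each class. In bins of 2 to 3 times the median there were 0.297 per bin in the distal part, 0.152 in the proximal part and 0.101 on the other autosomes. Taken as a whole, chromosome 10 had 0.236 per bin in this class and none of the 19 other autosomes was higher, the next having 0.157. From 3 to 4 times it had 0.583, and 1 of 13 other autosomes was higher with 0.609, and from 1.5 to 2 times 5 of 19 were higher. At 4 times or more, the class with no upper limit, the values were 1.64, 0.556 (5 windows in 9 bins) and 0.840. The repeated share inside the 295 windows was 19.5%, within the 16.1 to 40.3% of the other autosomes.

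The windows were clustered along the chromosome. Of the 111 blocks of 1 Mb, 66 held any, and the block from 109000001 to 110000000 held the most, with 25. High-density domains contained 179 of the 295 (60.7%), and 86 of those lay in the 2 domains between 105200001 and 110100000. The same domains held 15.0% of the retained bins and 120942 of the 424314 distinct tags. Windows and domains are both limits on the same tag counts, so their overlap is a description. The 295 fell into 243 groups when windows within 10 kb were joined, and the largest group had 7. As many as 8 lay in a single bin, from 110000001 to 110100000. The median window held 36 tags and only 25 held 50 or more.

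The share of plus-strand tags in the 295 windows ran from 22.2 to 68.75% with a median of 51.3%, and the 5 windows with the most tags had both strands about equally. The highest, from 109778001 to 109779000, held 72 distinct tags in a bin of 1046, with a Poisson 95% interval from 56.3 to 90.7, and split into 33 plus-strand and 39 minus-strand tags. The others held 60 from 82628001 to 82629000, 60 from 105471001 to 105472000, 58 from 106957001 to 106958000, and 60 from 23814001 to 23815000. The last of these stood apart from its surroundings, since it lay inside the 7.0 Mb low-density domain, was the only tag-rich window in any low-density domain of the chromosome, and made up 36.8% of the 163 tags of its bin. It held 29 plus-strand and 31 minus-strand tags.

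Over the whole chromosome the strands were balanced. Plus-strand tags made up 50.0% of the distinct tags (Clopper-Pearson 95% interval 49.8 to 50.1%), and 1048 of the 1086 retained bins (96.5%) had a 95% interval that contained 50%, with bins from 39.1 to 64.7%. Windows of 1 kb with no tag were 19.5% of the chromosome, the smallest share of the autosomes, with 23.3% in the proximal part and 14.6% in the distal part, and chromosome 12 followed at 23.9%. Like the tag-rich windows, these shares depend on the density that chose the chromosome.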

How the data were processed

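PCCl3 control DNA (1 library) was sequenced on an Illumina analyzer, and the authors aligned the reads to rn4 with at most 2 mismatches. The aligner's version and the treatment of reads with several placements are details not given in the sources used here. The deposited file lists the position and strand of each of 6714002 tags. It holds no score or count, so all tag counts per bin were computed here with Python 3.11.15, NumPy 2.4.6 and SciPy 1.17.1. Tags were reduced to 1 per 5′ end and strand and counted in bins of 100 kb, 10 kb and 1 kb. Positions are 1-based, and domains ended at gaps over 500 kb. Unplaced sequences were not used, and regions were named by fixed rules (domains of at least 1 Mb, 5 extreme bins and windows, 5 bins beside the division). The chromosome, its division and these rules were chosen with earlier results of these data known. With 1 library no test between samples was made. Other bin sizes, thresholds and tag sets were tried as alternatives. The counting code was tested on simulated data. No genome of build rn4 was used, so genes, base composition and sequences were not analysed here.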

Additional observations from a re-analysis of the deposited data

How the results depend on the processing

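Of 38 alternatives to 11 results, 15 left the value within its counting interval or the count within 1.5 times, 23 moved it and 0 turned its direction. The density ratio of chromosome 10 was 1.91 with all tags, 1.88 with no bins left out, 1.67 from means, 1.81 in 50 kb bins and 1.90 against the other autosomes only. The step at 62 Mb was 1.85 from means, 1.83 with the division at 60 Mb and 1.86 at 64 Mb. Without tag-rich windows the repeated share was 12.7%, and the excess of pairs per repeated tag was 1.62, or 0.833 from shifts of 150 to 200 bp, a narrower range that holds fewer pairs by construction. Tag-rich windows numbered 3185 at 5 times the mean, 1 at 20 times and 478 with all tags. High-density domains numbered 6 at 4 times the median, and low-density domains 7 under 0.75 times. The variance was 80.4 times the mean in 50 kb bins and 28.2 with all tags. Bins at 1.5 times the median or more were 61.5% and at 3 times 20.4%. For distal blocks at like repeated share, chosen after seeing the data, the ratio was 1.56 with all tags, 1.52 in classes of 1 percentage point and 1.48 without tag-rich windows, with 49 of 49 blocks above the median of the other autosomes in their class each time, and 94 of 98 in 500 kb blocks. No paired analysis was possible because a single library was analysed. The cause of each shift was not tested. With 1 library, depth limits single bins and windows, while the median of the proximal part rests on 172679 distinct tags.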
